A study of Mus musculus with 16 samples.

Results

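Ide, Fgfbp3 and Btaf1 are neighbouring genes on mouse chromosome 19 whose RNA levels rose and fell together from library to library in the cortex. They were chosen for that pattern, from their levels in each library, together with 5 flanking genes of the same stretch, Tnks2, Cpeb3, March5, Kif11 and Hhex. The 8 genes were found by symbol among the 47593 genes of the count table, and 8 of 8 passed the filter on low counts. The question was whether the levels fell into separate steps that followed neither diet nor batch, as a copy number difference between mice would give. Copy number itself was not measured.

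RNA was sequenced in 16 libraries from the cortex of heterozygous 5xFAD mice on a mixed C57BL/6-SJL background. Each library is taken here as 1 mouse. The paper's text describes the cortical samples as pooled for sequencing, while the legend of its expression figure gives 4 mice per group. Whether a library holds RNA of more than 1 mouse was not tested. All of the mice carried the transgenes of that line, which are driven by the neuron-specific Thy-1 promoter, so there was no group without the transgenes. All were 5 months old. Each sex had 4 mice on vehicle, a standard diet with the carrier alone, and 4 on a diet with rapamycin, an inhibitor of the kinase mTOR, from 2 months of age. Labels placed 11 libraries in batch 1 and 5 in batch 2, without saying what a batch is.

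Ide encodes insulin-degrading enzyme, a zinc peptidase that cleaves insulin and amyloid-β, and it is one of the peptidases held to clear soluble amyloid-β in the brain. Fgfbp3 encodes a secreted carrier of fibroblast growth factors, and Btaf1 an ATPase that removes the TATA-binding protein TBP from DNA. Among the flanking genes, Cpeb3 encodes an RNA-binding regulator of translation, March5 a ubiquitin ligase of the outer mitochondrial membrane, Tnks2 a tankyrase, Kif11 a motor of the mitotic spindle and Hhex a homeobox transcription factor. A copy number difference that affects Ide and Fgfbp3 has been described in stocks of C57BL/6J mice.

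The genes lie within 0.607 Mb of chromosome 19 (GRCm38), from 36834232 to 37440731. Their order is Tnks2, Fgfbp3, Btaf1, Cpeb3, March5, Ide, Kif11 and Hhex. Fgfbp3 (36917550 to 36919615, minus strand) and Btaf1 (36926079 to 37012752, plus strand) are neighbours read in opposite directions, with 6.46 kb between them. Ide (37268743 to 37337852, minus strand) lies beyond Cpeb3 (37021291 to 37208601, minus strand) and March5 (37207543 to 37222139, plus strand), with 46.6 kb between March5 and Ide. Cpeb3 and March5 overlap by 1.06 kb on opposite strands, and since strand was not used in the counting, read pairs from the overlap cannot be told apart. A pseudogene, Rpl10-ps6, lies inside Ide.

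The 250 bases before the RefSeq start of Fgfbp3, Btaf1 and Tnks2 (GRCm38.p6) are shown because Fgfbp3 and Btaf1 share the pattern of Ide and Tnks2, their neighbour on the other side of Fgfbp3, does not. The windows are chr19:36919600-36919849 on the minus strand for Fgfbp3, chr19:36925829-36926078 on the plus strand for Btaf1 and chr19:36833982-36834231 on the plus strand for Tnks2. Capitals mark matches on either strand to the motifs searched.
Fgfbp3: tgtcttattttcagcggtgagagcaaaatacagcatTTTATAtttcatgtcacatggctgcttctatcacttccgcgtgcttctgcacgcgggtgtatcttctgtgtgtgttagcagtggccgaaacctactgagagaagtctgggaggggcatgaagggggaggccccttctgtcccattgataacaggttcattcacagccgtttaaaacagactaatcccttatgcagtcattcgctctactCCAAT
Btaf1: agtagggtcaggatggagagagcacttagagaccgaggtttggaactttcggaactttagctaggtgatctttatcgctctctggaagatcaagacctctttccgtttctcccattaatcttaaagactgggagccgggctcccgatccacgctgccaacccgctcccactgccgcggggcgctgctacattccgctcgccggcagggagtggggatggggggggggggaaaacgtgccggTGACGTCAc
Tnks2: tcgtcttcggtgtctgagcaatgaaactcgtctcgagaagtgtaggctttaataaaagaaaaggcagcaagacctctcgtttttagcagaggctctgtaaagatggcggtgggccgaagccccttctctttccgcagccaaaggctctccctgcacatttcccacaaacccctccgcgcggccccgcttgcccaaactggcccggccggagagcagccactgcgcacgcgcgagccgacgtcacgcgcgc

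The motifs searched on both strands were the cAMP response element TGACGTCA, the CCAAT box, the TATA box as TATAAA, the GC box as GGGCGG and the E-box as CACGTG, and none of the matches overlapped another. The Btaf1 window held 1 match to TGACGTCA, starting 9 bases before the RefSeq start, and 1.55% of the 32851 promoters of the table held that motif in the same window. The Fgfbp3 window held 1 match to CCAAT, found in 33.8% of promoters, starting 5 bases before the RefSeq start. That match lies inside Fgfbp3 as counted, which reaches 36919615. The window also held 1 match to TATAAA on the reverse strand, found in 12.4%, starting 214 bases before the RefSeq start. Whether any of these matches acts as a promoter element was not tested. The Tnks2 window held 0 matches, and GGGCGG and CACGTG, present in 32.7% and 6.02% of promoters, were in none of the 3 windows. GC content was 47.2% for Fgfbp3, 58.4% for Btaf1 and 59.6% for Tnks2, against a median of 52.4%. No motif of this search had a match in both the Fgfbp3 and the Btaf1 window.

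Counted read pairs ranged from 16393501 to 20593089 per library, and levels are given as CPM, the read pairs of a gene per 1000000 read pairs of the library with TMM scaling. The library labelled male rapamycin 4 held 9935 read pairs of Xist and 0 of Y-linked genes, against 1 to 17 of Xist and 1915 to 2231 of Y-linked genes in the other males, so it goes against its sex label and results are also given without it. The cortical neuron marker Tbr1 (120.6 to 192.3 CPM) was present in every library, and summed markers reached 68.3 to 253.5 CPM for striatum, 16.1 to 52.5 CPM for hippocampus and 48.6 to 135.7 CPM for thalamus. Choroid plexus markers ranged from 11.9 to 1887 CPM over the libraries. In bulk tissue, fewer cells of a type and less RNA per cell cannot be told apart.

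Ide was measured at 43.9, 69.1, 46.6 and 96.5 CPM in female vehicle mice 1 to 4, and at 120.1, 119.7, 52.3 and 44.6 CPM in female rapamycin mice 1, 2, 4 and 5. In males it was at 108.4, 45.1, 46.7 and 78.6 CPM with vehicle and at 93.1, 88.3, 121.3 and 94.1 CPM with rapamycin. 6 libraries lay close together at the bottom, from 43.9 to 52.3 CPM, and the other 10 were spread from 69.1 to 121.3 CPM. The highest library was 2.77 times the lowest, and the 10 upper libraries lay between 1.58 and 2.77 times the lowest without a second step of the same size. Ide was counted with 898 read pairs in its lowest library, female vehicle 1, and with 2011 in its highest, male rapamycin 3. Its counts ranged from 810 to 2355 over the libraries, at which counting error alone was 3.51% and 2.06% of the value.

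Fgfbp3, at a much lower level, stood at 6.4, 9.62, 6.42 and 8.24 CPM in female vehicle mice and at 12.8, 14.5, 7.41 and 6.89 CPM in female rapamycin mice, in the same order. In males it stood at 9.34, 5.15, 6.63 and 8.22 CPM with vehicle and at 15.6, 11.2, 12.7 and 14.4 CPM with rapamycin. The 6 lowest libraries of Fgfbp3 were the same 6 as those of Ide. The other 4 vehicle libraries lay at 8.22 to 9.62 CPM and the other 6 rapamycin libraries at 11.2 to 15.6 CPM.

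Btaf1 was at 31.1, 38.5, 37.1 and 77.4 CPM in female vehicle mice and at 44.0, 43.6, 46.0 and 33.3 CPM in female rapamycin mice. It was at 54.6, 36.9, 34.6 and 53.1 CPM in male vehicle mice and at 50.4, 44.7, 68.6 and 56.1 CPM in male rapamycin mice. Of its 6 lowest libraries 5 were among the 6 lowest of Ide, the exception being female rapamycin 4, at 46.0 CPM. The 2 female rapamycin libraries with Ide near its top, 1 and 2, had Btaf1 near the middle of its range.

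**Figure D1:**
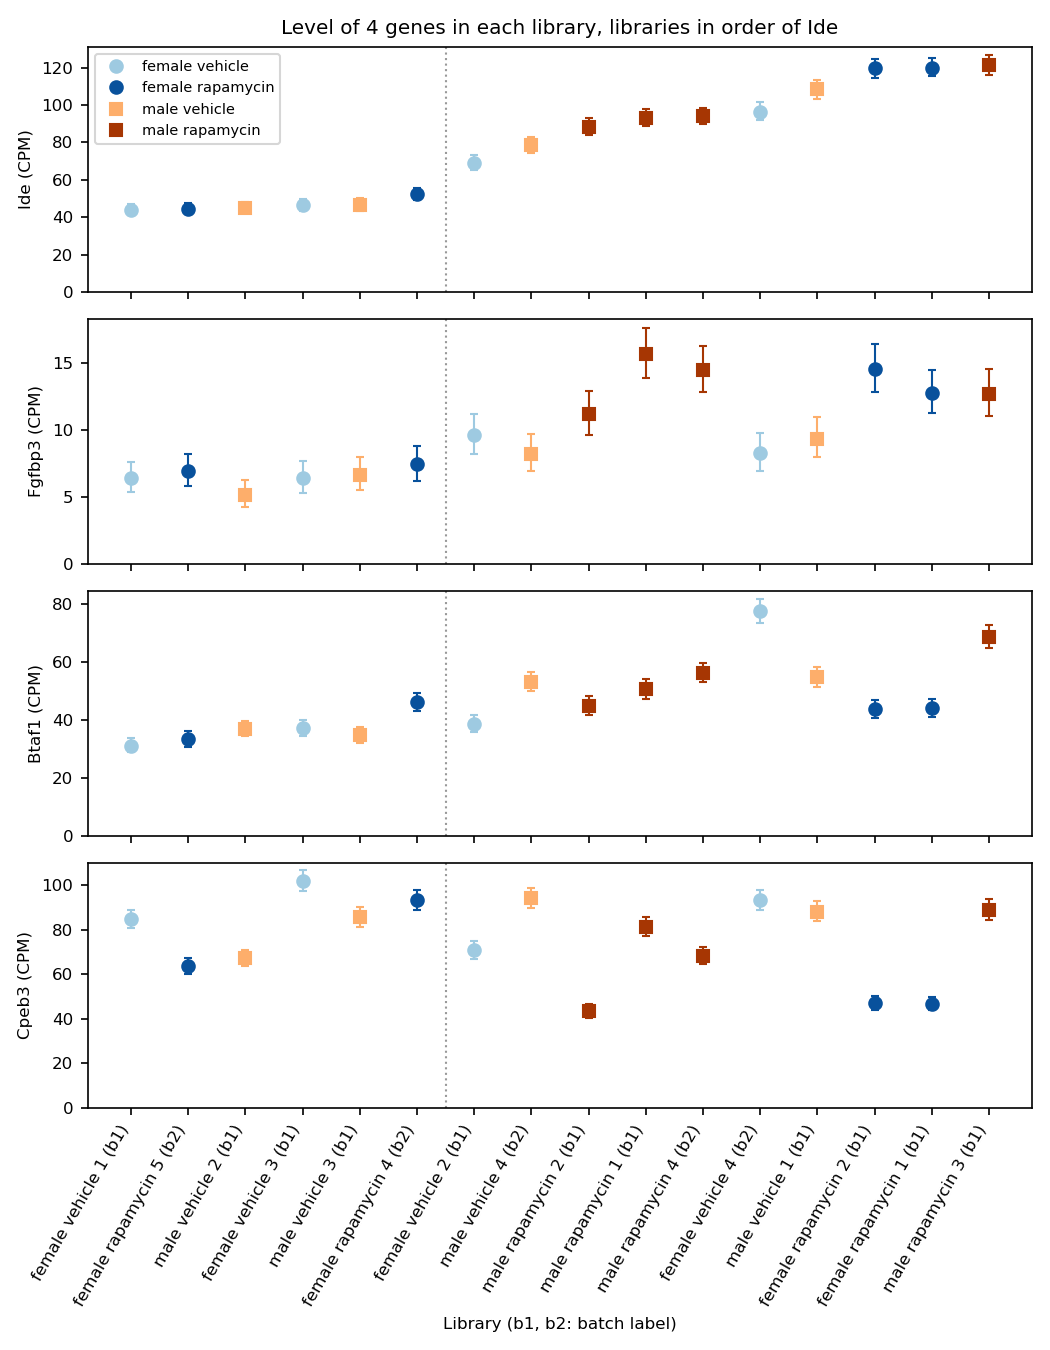
CPM of Ide, Fgfbp3, Btaf1 and Cpeb3 (linear axes from 0) in each of the 16 libraries, ordered by Ide; colour and shape give the labelled group, b1 and b2 the batch label, and bars the 95% Poisson interval of the count. The dotted line marks the largest gap of Ide, with 6 libraries at 43.9 to 52.3 CPM to its left and 10 at 69.1 to 121.3 CPM to its right. Fgfbp3 is lowest in the same 6 libraries, and Cpeb3 does not follow that order.

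The libraries on either side of the Ide gap came from both sexes, both diets and both batches. Below it lay 4 of 8 vehicle and 2 of 8 rapamycin libraries, 4 of 11 in batch 1 and 2 of 5 in batch 2, and 4 of 8 labelled female and 2 of 8 labelled male. The male rapamycin group was the exception, with 0 of 4 libraries below the gap, and 2 of 4 lay below it in each other group. Because these positions come from the values that chose the genes, they are given without a test.

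The gap was 0.40 on the log2 scale, measured as the largest step between neighbouring libraries with at least 3 libraries on each side. A gap at least as large was present in 13.1% of the 16553 genes tested, whose median gap was 0.18, and in 4.95% of 2201 genes within 0.5 in mean log2 CPM of Ide. The best division of the 16 Ide values into a low and a high set held 85.7% of their variance, and 1.69% of genes reached that share, whose median was 70.1%. For Fgfbp3 the gap was 0.21, between 10 and 6 libraries, and 41.1% of all genes and 32.9% of those of like level had one as large. For Btaf1 it was 0.18, and 50.0% of all genes and 31.8% of those of like level had one as large. The gaps of Fgfbp3 and Btaf1 were thus of a size that many genes had, and that of Ide was 0.23 once sex, diet and batch were removed. The largest gap of Btaf1 also lay above its 6 lowest libraries, and that of Fgfbp3 lay higher, above the 6 low libraries and the other 4 on vehicle. Because Ide, Fgfbp3 and Btaf1 were chosen from these same values, the shares of genes describe the pattern and are no test of it.

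Ide varied more than most genes of its level, but it was chosen from these same values. The shares of genes given here therefore describe its spread and are no test of it. After removal of sex, diet and batch, its SD was 0.57 in log2 CPM, reached by 12.8% of all genes tested and by 1.09% of the genes of like level. The SD was 0.36 for Btaf1, reached by 6.0% of genes of like level, and 0.39 for Fgfbp3, reached by 16.3%. Diet held 17% of the variance of Ide, batch 0.903% and sex 4.44%, against medians over all genes of 8.45%, 16.6% and 2.51%. Diet held 44.2% of the variance of Fgfbp3 and 3.01% of that of Btaf1, and batch 1.20% and 10.7%.

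Over the 16 libraries, Ide correlated with Fgfbp3 at Pearson r = 0.86 and Spearman rho = 0.81, and with Btaf1 at r = 0.74 and rho = 0.76, on log2 CPM. After removal of sex, diet and batch the values were r = 0.85 and rho = 0.78 for Fgfbp3 and r = 0.85 and rho = 0.89 for Btaf1. Among all 16552 other genes tested, Btaf1 ranked 1 and Fgfbp3 ranked 2 by this r. The next among genes with a mean level of 1 CPM or more was Spata24, at 0.798. Fgfbp3 and Btaf1 followed each other less, at r = 0.65. These genes were chosen for this likeness, so the values describe it and are no test of it.

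The relation did not hang on 1 library. Leaving out each library in turn gave r between 0.81 and 0.88 for Fgfbp3 and between 0.80 and 0.88 for Btaf1, with 0.88 and 0.86 when the library labelled male rapamycin 4 was left out. Without the 2 libraries farthest from the median of Ide, female vehicle 4 and female rapamycin 5, r was 0.81 and 0.78. Within the 11 libraries of batch 1 it was 0.74 and 0.80. Within the 10 libraries above the Ide gap, r on log2 CPM was 0.46 for Fgfbp3 and 0.28 for Btaf1, and within the 6 below it 0.54 and 0.94. Over all 16 libraries and with the terms removed, a change of 1 in log2 CPM of Ide went with 0.58 for Fgfbp3 and 0.55 for Btaf1.

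**Figure D2:**
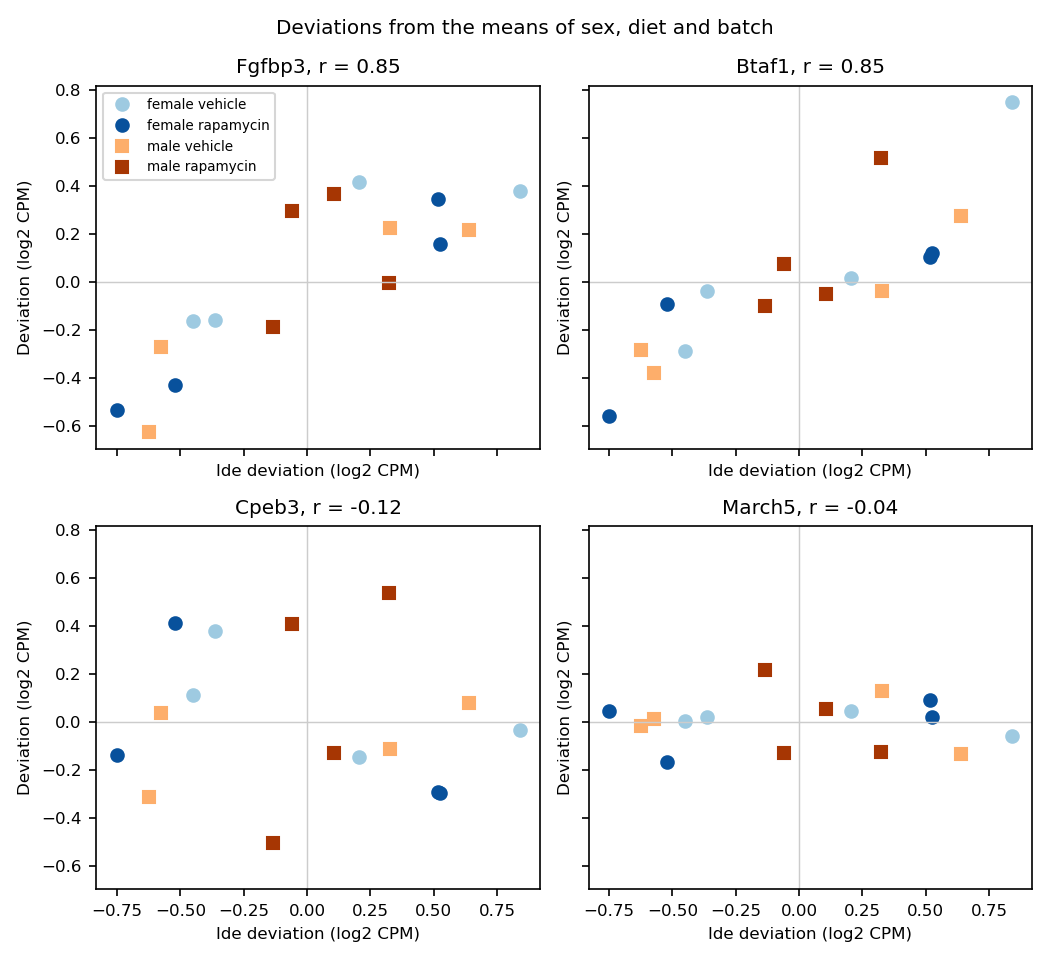
Deviation of log2 CPM from the means of sex, diet and batch for Fgfbp3, Btaf1, Cpeb3 and March5 (vertical) against that of Ide (horizontal), 1 point a library, 16 libraries, coloured by labelled group. Fgfbp3 and Btaf1 rise with Ide (r = 0.85 and 0.85), and Cpeb3 and March5, which lie between Btaf1 and Ide, do not (r = -0.12 and -0.04).

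The genes between Btaf1 and Ide did not share the pattern. After removal of the same terms, r with Ide was -0.12 for Cpeb3 and -0.04 for March5. On the outer sides it was -0.28 for Tnks2, 0.46 for Kif11 and -0.04 for Hhex. Kif11 rested on only 12 to 33 read pairs per library and Hhex on 24 to 72, so counting error at the lowest count was 28.9% and 20.4% of the value. A total of 33 genes were listed within 1 Mb of Ide, of which 17 passed the filter, and the 9 that were no members had r between -0.52 and 0.23. Another 6 genes were listed between the outermost members and 0 of them passed the filter.

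**Figure D3:**
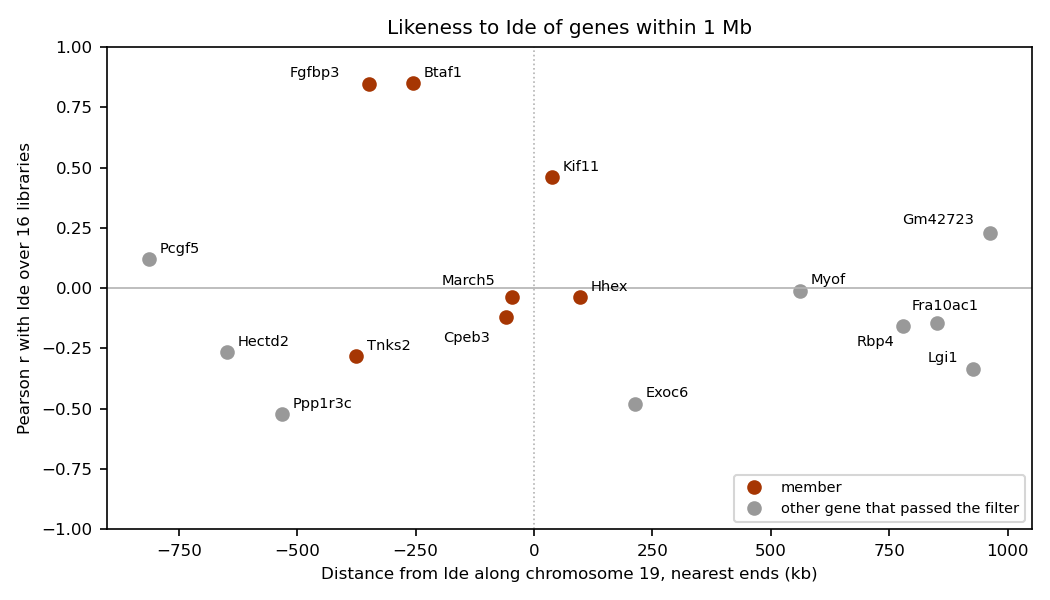
Pearson r with Ide over 16 libraries, after removal of sex, diet and batch, against distance from Ide along chromosome 19 in kb (nearest ends; negative towards lower coordinates) for the genes within 1 Mb that passed the filter. Fgfbp3 and Btaf1 lie at 0.85, and the 9 grey genes between -0.52 and 0.23; March5 and Cpeb3, nearer to Ide on the same side, lie near 0.

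Set against the flanking genes of the same library, the spread of Ide grew, but these genes were no steady reference. On log2 CPM, r with Ide was -0.39 for Tnks2, -0.33 for Cpeb3 and 0.07 for March5. Their part in the wider spread was not tested. The count of Ide was between 11.7% and 44.5% of the summed count of Cpeb3, March5 and Tnks2, with the highest library at 3.82 times the lowest. The same ratio spanned 3.54 times for Fgfbp3 and 2.82 times for Btaf1. The lowest share of Ide was that of female vehicle 3 and the highest that of female rapamycin 2. Female vehicle 3 was also the library with the highest Tnks2 (228.4 CPM) and Cpeb3 (102.0 CPM).

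The flanking genes varied in other ways. Cpeb3 was at 84.7, 70.8, 102.0 and 93.2 CPM in female vehicle mice and at 46.7, 46.9, 93.4 and 63.8 CPM in female rapamycin mice. It was at 88.1, 67.3, 85.6 and 94.2 CPM in male vehicle mice and at 81.4, 43.2, 89.0 and 68.3 CPM in male rapamycin mice. Its 3 lowest libraries, at 43.2 to 46.9 CPM, were all rapamycin libraries of batch 1, and 2 of them were among the highest for Ide. Its gap of 0.44 above these 3 libraries was larger than that of Ide, and 10.4% of all genes and 4.17% of those of like level had one as large.

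The level of Cpeb3 moved with a slope of expression on exon length that differed between libraries. The slope of log2 CPM, taken as its deviation from each gene's mean, on log2 exon length ran from -0.13 to 0.10 over the libraries, and its r with Cpeb3, whose exons sum to 7414 bases, was 0.94, both before and after removal of sex, diet and batch. For March5, with 2396 bases, r was -0.61 before and -0.72 after, and Cpeb3 and March5 opposed each other at r = -0.76 after removal. For Ide (5823 bases) r with the slope was -0.41 before and -0.19 after, for Fgfbp3 (1772 bases) -0.56 and -0.16, and for Btaf1 (7204 bases) 0.21 and 0.25. For Tnks2, the longest member with 10406 bases, it was 0.42 before and 0.56 after. The 3 lowest slopes were those of female rapamycin 1 and 2 and male rapamycin 2. The part of this slope in the members' levels was not tested.

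March5 was the member that moved with batch. It ranged from 60.9 to 78.4 CPM in the 11 libraries of batch 1 and from 48.5 to 57.7 CPM in the 5 of batch 2, with no overlap, and batch held 69.4% of its variance. It fell by 0.34 in log2 fold change in batch 2 (SE 0.08, adjusted p = 0.00234, edgeR quasi-likelihood test with Benjamini-Hochberg adjustment), and the call was kept without each library in turn (adjusted p at most 0.0141). Batch changed 35.5% of all genes tested, and March5 was 1 of 8 members called. Ide differed by -0.12 (SE 0.26, adjusted p = 0.757), with a 95% interval from -0.62 to 0.39, Fgfbp3 by -0.17 (SE 0.19, adjusted p = 0.501) and Btaf1 by 0.32 (SE 0.17, adjusted p = 0.166). The value of Btaf1 was 0.05 without female vehicle 4, its highest library, and it was called without female rapamycin 5 (0.43, adjusted p = 0.0491).

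The diet comparison asked whether the members moved with rapamycin, with sex and batch as terms. With rapamycin 13.3% of all genes were called, 6.46% higher and 6.86% lower, and 2 of 8 members were called, 1 in each direction. Since the pattern of Ide, Fgfbp3 and Btaf1 was picked from these same libraries, their values here describe the pattern and support nothing further.

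Fgfbp3 was higher with rapamycin, at 11.9 ± 3.26 CPM against 7.50 ± 1.58 CPM with vehicle (SD, n = 8 each). The log2 fold change was 0.67 (SE 0.17, adjusted p = 0.0222, edgeR), or 1.59-fold. Of the rapamycin libraries 6 lay above every vehicle library, and the remaining 2, female rapamycin 4 and 5, lay among the vehicle values and were also low in Ide. The call was lost without female rapamycin 1 (0.64, adjusted p = 0.0557) or female rapamycin 2 (0.60, adjusted p = 0.0562) and kept without the library labelled male rapamycin 4 (0.61, adjusted p = 0.0412).

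Ide was at 91.7 ± 29.9 CPM with rapamycin and at 66.9 ± 25.5 CPM with vehicle (SD, n = 8 each), and the ranges overlapped from 44.6 to 108.4 CPM. The log2 difference was 0.45 (SE 0.24, 95% interval from -0.02 to 0.91), which did not pass the test (adjusted p = 0.213, edgeR). It passed in batch 1 alone (0.86, adjusted p = 0.0429) and without the filter on low counts (0.45, adjusted p = 0.0110), and did not in the 16 fits that left out 1 library (0.36 to 0.63, lowest adjusted p = 0.0772). Btaf1 differed by 0.07 (SE 0.16, 95% interval from -0.24 to 0.39, adjusted p = 0.794), with 48.3 ± 10.4 CPM on rapamycin and 45.4 ± 15.5 CPM on vehicle. Thus of 3 genes that varied together, 1 passed the diet test, and whether their diet effects differed from each other was not tested.

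Tnks2 fell by 0.23 in log2 fold change with rapamycin (SE 0.07, adjusted p = 0.0366, edgeR), from 180.9 ± 21.6 CPM to 151.5 ± 11.3 CPM (SD, n = 8 each). The groups overlapped only between 159.5 and 167.7 CPM. This call was lost in 10 of the 16 fits without 1 library, with values from -0.26 to -0.19 and adjusted p up to 0.0925, namely when the library left out was 1, 3 or 4 of female vehicle, 1 or 2 of female rapamycin, 1, 2 or 4 of male vehicle, or 2 or 4 of male rapamycin (-0.22, adjusted p = 0.0640, for the last). Cpeb3 was at 66.6 ± 19.9 CPM against 85.7 ± 11.7 CPM, a difference of -0.41 (SE 0.15) with an adjusted p of 0.0770 in edgeR and 0.0365 in DESeq2, and it passed in edgeR without female rapamycin 4 (0.0286), male rapamycin 1 (0.0439) or male rapamycin 3 (0.0231). March5 differed by 0.02 (SE 0.07), Hhex by 0.01 (SE 0.19) and Kif11 by -0.11 (SE 0.25), with adjusted p of 0.801 or more.

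**Figure D4:**
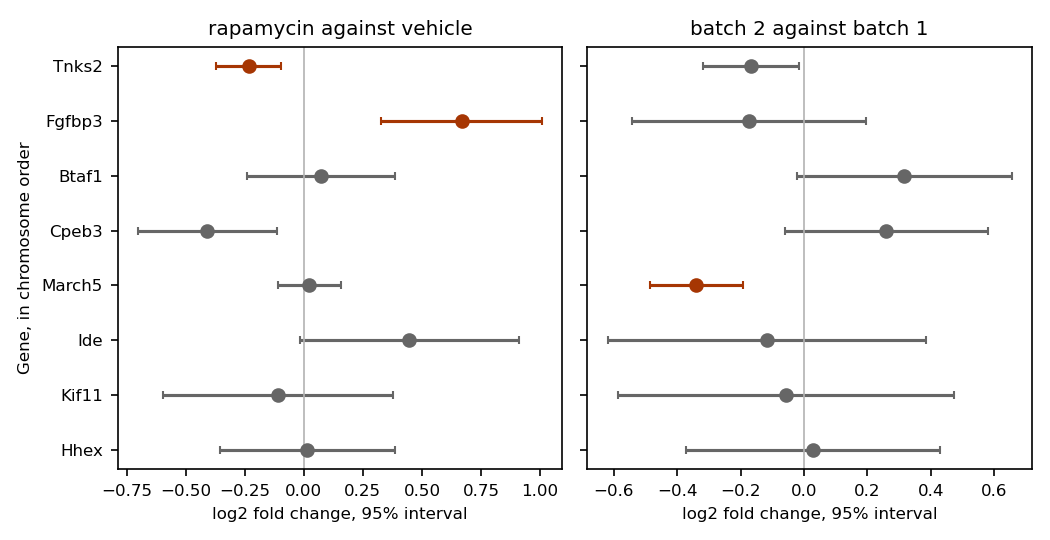
Log2 fold change with its 95% interval (1.96 SE, edgeR, 16 libraries) of the 8 genes in chromosome order, for rapamycin against vehicle (left) and batch 2 against batch 1 (right); red marks an adjusted p under 0.05. Fgfbp3 (0.67) and Tnks2 (-0.23) pass with rapamycin and March5 (-0.34) with batch; the intervals of Ide include 0 in both panels.

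Sex and its interaction with diet gave no call among the members. Between labelled males and females 0.0302% of genes were called, and 0 of 8 members, with Ide at 0.17 (SE 0.24), Fgfbp3 at 0.15 (SE 0.17) and Btaf1 at 0.23 (SE 0.16), all log2 male over female. For the difference between the rapamycin effects in males and females, 0 of 16553 genes were called by edgeR and 0 by DESeq2 (360 and 399 at an unadjusted p under 0.05), a background of 0%. The interaction was 0.12 for Ide (SE 0.48), 0.42 for Fgfbp3 (SE 0.34) and 0.47 for Btaf1 (SE 0.31), and its 95% interval for Ide ran from -0.83 to 1.06. Without the library labelled male rapamycin 4, the sex difference was 0.16 for Ide (SE 0.26), 0.07 for Fgfbp3 (SE 0.18) and 0.25 for Btaf1 (SE 0.18). The interaction was then 0.10 for Ide (SE 0.52), 0.30 for Fgfbp3 (SE 0.36) and 0.55 for Btaf1 (SE 0.32), and 0 of 8 members were called in either comparison.

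Compared per kb of exon, the members took the following order by median level: March5 at 26.7 CPM per kb, Tnks2 at 15.6, Ide at 14.3, Cpeb3 at 11.2, Btaf1 at 6.16, Fgfbp3 at 4.96, Hhex at 1.35 and Kif11 at 0.264. Across libraries the ranges of neighbours in this order overlapped, except for Fgfbp3 above Hhex (2.91 to 8.82 against 0.755 to 1.94 CPM per kb) and Hhex above Kif11 (0.128 to 0.387 CPM per kb). Ide itself ran from 7.54 to 20.8 CPM per kb, across the levels of both Tnks2 and Cpeb3.

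Outside the members, the genes most like Ide by r after removal of sex, diet and batch, out of 14682 genes whose mean level was 1 CPM or more, were Spata24 (r = 0.80), 9430038I01Rik (0.79), A330041J22Rik (0.78), Tnfsf13b (0.78), Eml3 (0.77), Nr1d1 (0.77), Cenpn (0.75) and Rrp15 (0.75). Of these only Eml3 is on chromosome 19, at 8929694 to 8941563. Nr1d1, a repressor of the circadian clock, was the most abundant, from 59.4 to 173.6 CPM. The least alike were Ift80 (r = -0.82), Brms1l (-0.79), Dnah7a (-0.78) and Map10 (-0.78). With 16 libraries and this many genes, values of this size are a description of these libraries.

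On a list of other peptidases tied to amyloid-β degradation, r with Ide lay between -0.45 (Plat) and 0.35 (Ece1), after removal of the terms. The list includes the plasminogen activators Plat and Plau. Of 20 listed genes 19 passed the filter, and Plg, which encodes plasminogen, did not. With rapamycin 2 rose, 0 fell and 17 did not pass the test, where 13.3% of all genes were called. The median log2 fold change was -0.11 against 0.02 for all genes tested. Htra1, a secreted serine protease, rose from 129.8 ± 17.7 to 182.8 ± 17.6 CPM (SD, n = 8 each; 0.50, SE 0.09, adjusted p = 0.00880, edgeR). Plat, tissue plasminogen activator, rose from 28.8 ± 6.53 to 38.2 ± 5.55 CPM (0.44, SE 0.11, adjusted p = 0.0219). The membrane peptidase neprilysin, Mme, was at 5.40 ± 2.13 CPM with rapamycin and 5.89 ± 1.99 CPM with vehicle (-0.13, SE 0.21), and Ece1, endothelin-converting enzyme, at 60.1 ± 5.54 against 63.7 ± 7.80 CPM (-0.11, SE 0.06). The gelatinases Mmp2 and Mmp9 were at 2.56 ± 0.603 and 2.10 ± 0.496 CPM with rapamycin and at 3.30 ± 0.80 and 1.79 ± 0.725 CPM with vehicle. The cathepsins Ctsb and Ctsd were the most abundant of the list, with means of 764.5 and 745.6 CPM over all libraries, and Ctsd was the higher with vehicle (838.1 against 793.6 CPM).

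In the peptidase family of Ide, the M16 family, 0 of 6 genes rose or fell with rapamycin, too few to read against the 13.3% of all genes called, and the median log2 fold change was -0.03. Uqcrc1, a core subunit of the mitochondrial bc1 complex, was the most abundant at 187.7 to 313.9 CPM (0.16, SE 0.09). Beside Fgfbp3, 0 of 10 further genes of fibroblast growth factor carriers, ligands and receptors rose or fell, with a median of 0.07. These 10 genes are also too few to read against the 13.3%. Among them Fgfr3 had the highest mean over all libraries, 120.6 CPM, although Fgf13 was the higher with vehicle (114.5 CPM). Fgfr3 was at 132.0 ± 12 CPM on rapamycin and 109.2 ± 20.3 CPM on vehicle (0.26, SE 0.09, adjusted p = 0.0734).

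A list of 11 genes held Tbp, whose protein is the target of Btaf1, its relative Tbpl1 and partners of TBP. Of these 1 rose and 1 fell with rapamycin, where 6.46% and 6.86% of all genes did. Drap1, a subunit of the repressor NC2, rose from 128.7 ± 20.4 to 164.6 ± 42.9 CPM (0.41, SE 0.10, adjusted p = 0.0187, edgeR). Taf1, the largest subunit of TFIID, fell by 0.36 (SE 0.09, adjusted p = 0.0208), from 80.8 ± 7.75 to 64.0 ± 10.7 CPM. Tbp itself varied little, from 20.5 to 26.8 CPM. Among 4 paralogues of the flanking genes Tnks, the other tankyrase, fell by 0.76 (SE 0.19, adjusted p = 0.0191), from 71.5 ± 13.4 to 45.9 ± 19.7 CPM, and Cpeb1, Cpeb2 and Cpeb4 did not pass the test. Cpeb1, named here after its values were seen, had r = 0.74 with Ide, at 64.8 ± 7.46 CPM with rapamycin and 54.9 ± 10.9 CPM with vehicle. In batch 2, where 35.5% of all genes differed, 6 of the 19 tested genes of the amyloid-β peptidase list rose and 1 fell. Of the M16 family 2 rose and 1 fell, and of the fibroblast growth factor genes 2 rose and 1 fell. Of the TBP list 0 rose and 5 fell, and of the paralogues 2 rose and 0 fell.

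Summed by type, cell type markers moved little with Ide. Single markers that passed the filter had r with Ide from -0.48 (Cldn5) to 0.40 (Lpl) after removal of sex, diet and batch. The summed level of each of 13 marker lists correlated with Ide between -0.22 (blood) and 0.36 (plaque-associated microglia) after removal of sex, diet and batch. For Fgfbp3 the values were 0.60 for plaque-associated microglia, whose 7 markers summed to 120.2 to 313.5 CPM with vehicle and 79.5 to 251.8 CPM with rapamycin, and 0.47 for microglia. The number of read pairs correlated with Btaf1 at -0.68 and with Ide at -0.42 (log2 CPM, n = 16). The mitochondrial share of a library, between 2.64% and 6.99%, correlated at 0.41 with Ide, 0.55 with Fgfbp3 and -0.75 with Cpeb3. The part of these measures in the results was not tested.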

How the data were processed

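The authors deposited counts of read pairs per gene for 16 libraries, neither normalized nor filtered. Per the file headers and the paper's methods, poly(A) libraries (paired-end, the first 10 bases trimmed) were aligned by the authors with HISAT2 2.2.1 to GRCm38 and counted by gene name with featureCounts 2.0.3 over exons, without regard to strand. Trim Galore, FastQC 0.11.9 and Trimmomatic 0.39 are named in the submitters' processing notes. Group tables that repeat these counts were not used. Read pairs that overlap 2 genes, or align to several places, were not counted, which lowers genes with near-identical copies.

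The counts were scaled with TMM factors and tested with edgeR 4.0.16 (R 4.3.3): filterByExpr with a minimum count of 10 kept 16553 genes with 99.9% of read pairs, and quasi-likelihood tests had the terms sex, diet and batch, or their groups and batch for the interaction. Called means an adjusted p (Benjamini-Hochberg over all genes tested) under 0.05. log2 CPM had a prior count of 2, and sex, diet and batch were removed with limma 3.58.1. DESeq2 1.42.0 was an alternative. Intervals of single counts are exact Poisson and cover counting error only, since there were no molecular identifiers. Libraries of 1 group differed beyond counting noise in 24 of 24 pairs (chi-square per degree of freedom 12.1 to 129.2).

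The members and gene lists were chosen with earlier results of these data known. Named are all 8 members, the 8 genes most and 4 least like Ide, and, of each list, those that passed the rapamycin test, the most abundant and the defining ones. Alternatives were another scaling, no filter, DESeq2, batch 1 alone, no batch term, a replicate block and each library left out. The library labelled male rapamycin 4 was kept in its labelled group. On simulated counts of 16328 genes with 200 changed by 1 on the log2 scale, the edgeR diet test recovered 163 with 3 false calls. These counts were drawn gene by gene without effects of sex or batch, so the number of false calls does not carry over to the data. Figures were drawn with matplotlib.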

Additional observations from a re-analysis of the deposited data

Results flagged for a closer look

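Over 32 combinations of a member and a group of 4 libraries, 2 had a library far from the other 3, about as many as chance gives at 1 in 20. Btaf1 in female rapamycin 5 stood at 33.3 CPM against 43.6 to 46.0 CPM in the other 3, a gap of 0.834 of the group's range (critical value 0.829). March5 in female vehicle 4 stood at 51.7 CPM against 68.3 to 70.3 CPM, a gap of 0.904 of the range, and female vehicle 4 is the only library of its group in batch 2.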

How the results depend on the processing

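With DESeq2 size factors no member changed its side of the threshold. Genes called with rapamycin numbered 2205, against 1298 with a replicate block in place of batch, 142 without the batch term, 1240 in batch 1 alone and 719 to 3352 without 1 library (719, 868 and 3352 for female rapamycin 1, 2 and 4, 988 for male rapamycin 2, 1234 for male vehicle 4 and 1383 for female vehicle 3). The calls for sex numbered 113 without the filter, 11 with DESeq2 and 3 with the replicate block, against 5, and for the interaction 87 without the filter, against 0; none was a member. The labels do not say that a replicate number marks a shared day or litter. Libraries of different groups deviated from their group means with r from -0.16 to 0.51 over 15 pairs with the same number in batch 1. Over 30 pairs with other numbers in batch 1, r ran from -0.17 to 0.41. Over 6 pairs with the same number in batch 2, it ran from 0.35 to 0.68. Of 16 libraries, 12 were most alike to one of their own number in another group. Number 4 occurs only in batch 2, so likeness among its libraries cannot be told apart from batch. Female rapamycin 5 has no library of its own number in another group. Whether the numbers pair the libraries was not tested, and the main fit ignores any such pairing. With the replicate block the call of Tnks2 was lost (-0.23, adjusted p = 0.0531) and Fgfbp3 kept its call (0.73, adjusted p = 0.0269). Without the batch term Fgfbp3 (0.66, adjusted p = 0.0752) and Tnks2 (-0.26, adjusted p = 0.106) lost theirs. Tnks2 also lost it in batch 1 alone (adjusted p = 0.11) and without the filter (adjusted p = 0.0926), and Cpeb3 gained one without the filter (adjusted p = 0.00412).

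Among differences that were not called, the direction turned for Hhex with the replicate block (-0.01) and March5 without the batch term (-0.015). Without 1 library the diet difference ran from -0.10 to 0.11 for Hhex, -0.017 to 0.059 for March5 and -0.022 to 0.26 for Btaf1, and the batch difference from -0.40 to 0.05 for Ide, -0.21 to 0.11 for Kif11 and -0.10 to 0.12 for Hhex. The spread of Ide, 2.77 times, was 3.01 times with the terms removed, 3.82 times relative to the flanking members and 2.69 to 2.77 times without 1 library. The r of Fgfbp3 with Ide was 0.74 in batch 1, and that of Btaf1 0.74 with the terms kept. The causes of these changes were not tested. The batch label is not explained, and with 16 libraries neither steps of expression nor their absence could be tied to copy number.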
